A study of Mus musculus with 8 samples.

Results

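The polyamine synthesis genes are a set of 8 genes among the 38924 in the deposited table: Odc1, Amd1, Srm and Sms, which encode the enzymes that make polyamines, Sat1, which encodes the enzyme that starts their breakdown, and Oaz1, Oaz2 and Azin1, which encode regulators of ornithine decarboxylase. The set was chosen by name, because polyamines are tied to embryonic diapause and because Sms stood out as low in diapaused inner cell mass. The low level of Sms there is therefore a description with no test, in every comparison that includes the diapaused libraries. All 8 genes were in the table and all 8 passed the filter on low values, which kept the 17698 genes that reached 1 in 2 or more libraries.

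RNA was sequenced from mouse embryos of the strain C57BL/6, in 3 libraries made from the inner cell mass (ICM) of blastocysts at day 3.5, 3 libraries of ICM from diapaused blastocysts (dICM) and 2 libraries of epiblast (Epi) from post-implantation embryos at day 6.5. Diapause, in which the blastocyst pauses its development and can later resume it, was induced on day 3.5 by tamoxifen into the peritoneum and 0.5 mg of Depo Provera under the skin, and these embryos were collected 5 days later. Each library was a pool of about 50 embryos, blastocysts were treated with antibody and complement to lyse the trophectoderm, and all RNA was amplified before library preparation. The labels call the libraries biological triplicates and duplicates and give the sex as female, without saying whether this refers to the embryos or to their mothers. Arrest, hormone treatment and the extra days in the uterus came together in dICM and cannot be told apart.

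Polyamines (putrescine, spermidine and spermine) are small positively charged molecules that bind nucleic acids and are needed for cell growth and translation. Ornithine decarboxylase makes putrescine from ornithine, and spermidine synthase and then spermine synthase add aminopropyl groups that come from decarboxylated S-adenosylmethionine. Antizymes bind ornithine decarboxylase, direct it to the proteasome and limit polyamine uptake, antizyme inhibitors release it, and acetylation of spermidine and spermine leads to their export or oxidation. Much of this control acts on translation and protein turnover, which RNA levels do not show.

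Values are the deposited adjusted TPM, named after TPM, a transcript abundance per length scaled to a common total. How they were adjusted is not known, so levels set side by side between genes, and ratios of them, assume that the adjustment kept that scale. The columns summed to between 720674 and 1179026, and 14634 to 15130 genes per library were at 1 or more. Differences are on the log2(value + 1) scale, with the standard error (SE) and adjusted p of limma's moderated test over the 17698 genes. A gene was called where its adjusted p was under 0.05. The 3 comparisons share libraries with each other and are not independent. The label of each group was checked on marker genes: Nanog averaged 193 in ICM, 136 in dICM and 74.8 in Epi, and Fgf5, a marker of the post-implantation epiblast, averaged 0.359, 0.0518 and 107. The summed level of 10 primitive endoderm markers was 69.9 to 89.4 in ICM, 245 to 389 in dICM and 16.7 to 28.1 in Epi. Of the 10, 7 were called higher and 1 lower in dICM than in ICM, beside 7.52% and 5.81% of all kept genes. These shares also stand beside the calls in dICM against ICM for the marker lists that follow. The 8 visceral endoderm markers summed to 25.6 to 36.3, 562 to 578 and 305 to 417, but Rhox5 made up most of this (26.3, 558 and 319 on average). The other 7 summed to 4.48 to 8.21, 7.48 to 12.2 and 20.5 to 64.3. Of the 6 visceral endoderm markers that passed the filter, 2 were called higher and 1, Hnf4a, lower in dICM than in ICM. The 10 trophectoderm markers summed to 33.2 to 54.4, 44.0 to 177 and 58.3 to 66.7, in the same order of groups. The 177 was dICM replicate 3, where Krt18 alone was at 121. Of the 7 in this list that passed the filter, 1, Gata3 (1.46 in ICM, 8.41 in dICM), was called higher and 0 lower in dICM than in ICM. The 7 blood and immune markers summed to 5.00 to 10.1 in ICM, 47.3 to 134 in dICM and 2.42 to 4.08 in Epi, and the 2 that passed the filter were both called higher in dICM than in ICM: Laptm5 averaged 0.966 in ICM and 31.8 in dICM, and Cd68 6.29 and 45.2. The other 5, Ptprc, Tyrobp and Hba-a1 among them, summed to 3.7 or less in every library. Hba-a1, a haemoglobin gene, was at 3.30 in dICM replicate 2, 0.407 in dICM replicate 3 and 0.0645 or less elsewhere. The 6 uterine markers summed to less than 1 in every library. The 8 markers of cycling cells summed to 398 to 463 in ICM, 143 to 260 in dICM and 604 to 660 in Epi, and 4 of the 8 were called lower in dICM than in ICM. The 10 naive pluripotency markers summed to 1515 to 1729, 432 to 449 and 144 to 166, and only Dppa3 (1133 in ICM, 49.9 in dICM) was called lower in dICM than in ICM. Without Dppa3 the sums were 368 to 528, 381 to 403 and 142 to 162. The 6 primed epiblast markers summed to 22.9 to 36.4, 7.53 to 13.6 and 287 to 577. The part of these markers in the results below was not tested, and in bulk RNA fewer cells of a type and less RNA per cell cannot be told apart.

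Of the 8 genes, Sms and Sat1 were the ones that differed most between ICM and dICM, while Odc1 stayed at the top of the set in every group. The order of mean levels in ICM was Odc1, Sat1, Oaz1, Sms, Srm, Azin1, Amd1 and Oaz2. The last 3 of these lay between 12.4 and 13.6 with overlapping libraries, and Sat1 and Oaz1 also overlapped. In dICM the order was Odc1, Oaz1, Sat1, Srm, Amd1, Sms, Azin1 and Oaz2, with Sms above Srm in ICM and below it here. In Epi the order was Odc1, Oaz1, Sms, Amd1, Srm, Azin1, Oaz2 and Sat1, with Sat1 last. These orders depend on how reads were divided among near-identical copies, here genes that share at least 5% of a member's 50-base windows. With the copies in the table added to each member, Sms stayed above Srm in dICM (27.8 beside 18.3) and Amd1 was above Srm in ICM (36.2 beside 19.6). Odc1 stayed first in every group. Odc1 was above 97.5% of the kept genes in ICM, 97.3% in dICM and 98.6% in Epi.

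**Figure D1:**
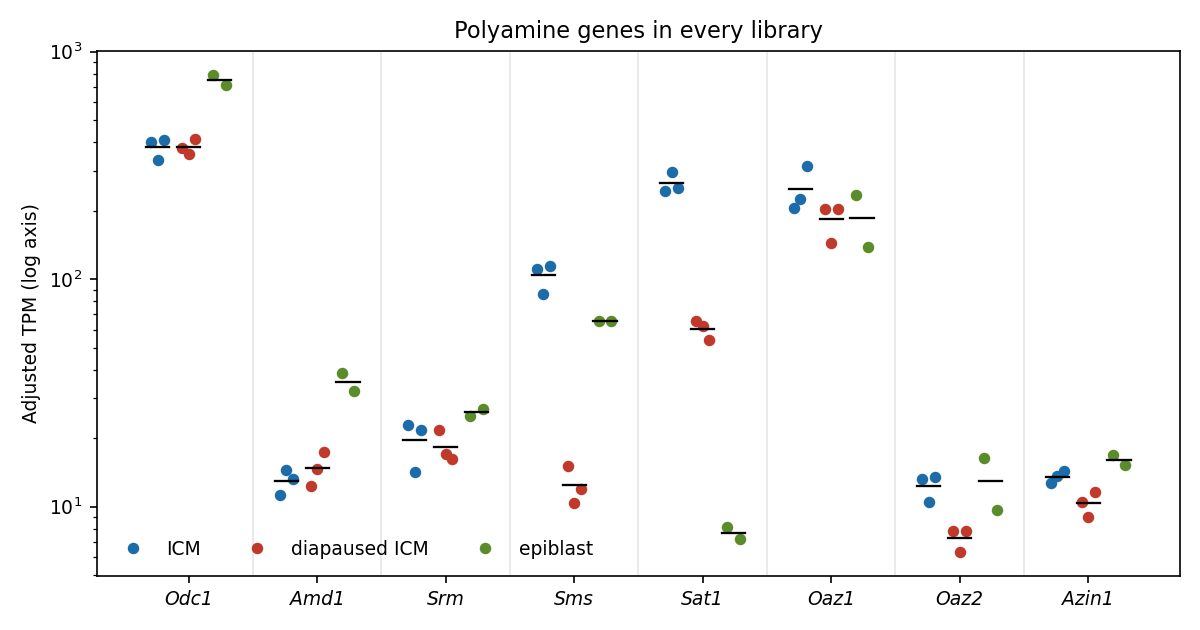
Adjusted TPM of each of the 8 genes (log axis) in the 8 libraries, grouped as ICM, dICM and Epi, with each point a library and each bar the group mean. Sms was at 10.3 to 15.1 in the 3 dICM libraries and at 65.3 or more in the other 5, whereas Odc1 was at 335.3 or more in every library.

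In the comparison of dICM with ICM, 0 of the 7 members other than Sms were called higher and 1, Sat1, lower, beside 7.52% and 5.81% of all kept genes. At an unadjusted limma p under 0.05 the counts were 0 and 2. The median difference of the 7 was -0.36, against 0.00 over all kept genes. The groups did not overlap for 4 of the 7 (Sat1, Azin1, Oaz1 and Oaz2), all lower in dICM, where 30.7% of kept genes had no overlap in either direction and 14.4% lower in dICM.

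For Epi against ICM, 2 of 8 were called higher (Odc1 and Amd1) and 1 lower (Sat1), beside 16.7% and 13.3% of all kept genes. The groups did not overlap for 6 of the 8, beside 59.0% of kept genes, and the median difference was 0.13 against 0.14. In dICM against Epi, 1 of 7 was called higher (Sat1) and 2 lower (Odc1 and Amd1), beside 16.0% and 18.6%. There was no overlap for 6 of the 7, beside 61.4%, and the median was -0.59 against -0.11 over all kept genes. With 7 or 8 members these counts are given beside the background and are not read as different from it.

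The enzymes of the synthetic branch are described first. Odc1 (ENSMUSG00000011179), which encodes ornithine decarboxylase, the first and rate-limiting enzyme of the branch, was at 399.8, 335.3 and 407.7 in the ICM libraries, 378.6, 354.9 and 412.7 in the dICM libraries and 792.2 and 711.4 in the Epi libraries. The ICM and dICM libraries overlapped, and both Epi libraries were above all 6 others. The mean of 382 ± 29.1 (SD, n = 3) in dICM lay beside 381 ± 39.7 (SD, n = 3) in ICM, a difference of 0.01 with a 95% interval of -0.43 to 0.44 (limma adjusted p = 0.99). In Epi the mean of 752 ± 57.2 (SD, n = 2) was 1.97 times that of ICM, a difference of 0.98 ± 0.21 (SE, limma adjusted p = 0.0097). Odc1 was correspondingly lower in dICM than in Epi, by -0.98 ± 0.21 (SE, limma adjusted p = 0.0087). Neither call involving Epi held without Epi replicate 1 (limma adjusted p = 0.086 against ICM and 0.074 for dICM against Epi), and the call against ICM was also lost when columns were rescaled to a common total of 1000000 (0.68, limma adjusted p = 0.062).

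Amd1 (ENSMUSG00000075232) encodes S-adenosylmethionine decarboxylase, which makes the aminopropyl donor. It was at 11.2, 14.5 and 13.2 in ICM, 12.3, 14.6 and 17.4 in dICM and 38.5 and 32.2 in Epi. As for Odc1, ICM and dICM overlapped and both Epi libraries stood above the rest. The difference between dICM and ICM was 0.17 (95% interval -0.32 to 0.66, limma adjusted p = 0.68). Amd1 rose 2.72-fold in Epi against ICM, by 1.38 ± 0.24 (SE, limma adjusted p = 0.0037), and this call held in all 19 alternatives fixed for it. It was lower in dICM than in Epi by -1.21 ± 0.24 (SE, limma adjusted p = 0.0058, and 0.06 without Epi replicate 1). Odc1 and Amd1, the regulated enzymes that feed the branch, were thus both highest in Epi, with no difference called between dICM and ICM. Their Pearson correlation was 0.933 over the 8 libraries, which share 3 groups and are described only.

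Srm (ENSMUSG00000006442), which encodes spermidine synthase, was at 22.9, 14.1 and 21.8 in ICM, 21.6, 17.0 and 16.1 in dICM and 24.9 and 27.0 in Epi. All dICM values fell within the range of ICM, and the Epi values were just above it. No difference was called: -0.08 (95% interval -0.63 to 0.47, limma adjusted p = 0.88) for dICM against ICM and 0.42 (95% interval -0.20 to 1.03, limma adjusted p = 0.28) for Epi against ICM. Between dICM and Epi it was -0.50 (95% interval -1.11 to 0.12, limma adjusted p = 0.18).

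Sms (ENSMUSG00000071708), on the X chromosome, encodes spermine synthase, which converts the spermidine made by Srm to spermine. Its values were 111, 86.1 and 115 in ICM, 15.1, 10.3 and 12.0 in dICM and 65.3 and 65.6 in Epi. Every dICM library was below every other library, and the 2 Epi libraries were below the 3 ICM libraries. The dICM mean of 12.5 ± 2.42 (SD, n = 3) was 8.33-fold below the ICM mean of 104 ± 15.5 (SD, n = 3) and 5.25-fold below the Epi mean of 65.5 ± 0.211 (SD, n = 2). On the log2 scale these were differences of -2.96 and -2.32, given without a test because they chose the gene. The difference from ICM ranged from -3.24 to -2.64 over the fixed alternatives. The comparison of Epi with ICM was not used for the choice: Sms differed by -0.65 ± 0.25 (SE, limma adjusted p = 0.08), which was not called. It was called after rescaling to a common total (limma adjusted p = 0.028) or median-of-ratios scaling (0.036).

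The sequences upstream of Sms and Sat1, the members whose RNA was lowest in dICM relative to ICM, are shown because the Myc family, whose members bind CACGTG, is a known regulator of Odc1. RefSeq entries were available for 6 of the 8 genes (all but Srm and Azin1), and Sms had 2 start sites. Each line holds the 250 bases before a start in RefSeq GRCm38.p6, on the minus strand, in lower case with any CACGTG in capitals.
Sms, distal start, chrX:157492288-157492537: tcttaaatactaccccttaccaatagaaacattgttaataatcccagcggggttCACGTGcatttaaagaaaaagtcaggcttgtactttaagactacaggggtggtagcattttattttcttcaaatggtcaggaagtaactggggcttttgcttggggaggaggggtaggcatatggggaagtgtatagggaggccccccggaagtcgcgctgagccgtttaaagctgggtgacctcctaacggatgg
Sms, proximal start, chrX:157491369-157491618: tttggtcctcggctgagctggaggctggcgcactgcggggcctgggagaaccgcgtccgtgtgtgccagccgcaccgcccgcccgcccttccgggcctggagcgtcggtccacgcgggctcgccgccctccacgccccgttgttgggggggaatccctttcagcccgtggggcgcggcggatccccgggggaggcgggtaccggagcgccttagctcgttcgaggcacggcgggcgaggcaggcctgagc
Sat1, chrX:155216450-155216699: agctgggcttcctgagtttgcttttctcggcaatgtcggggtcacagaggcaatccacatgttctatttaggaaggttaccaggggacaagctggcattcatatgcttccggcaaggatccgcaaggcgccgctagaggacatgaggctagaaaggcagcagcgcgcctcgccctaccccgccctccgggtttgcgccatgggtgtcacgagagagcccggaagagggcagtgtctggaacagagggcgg
The distal Sms window held CACGTG once, 196 bases before the start. The proximal Sms window and those of Sat1, Odc1, Amd1, Oaz1 and Oaz2 held none, so that 1 of 7 windows had a match. CACGTG, which reads the same on both strands, was found in 7.15% of 32851 RefSeq windows of 300 bases. A match describes letters and not a bound site, and which Sms start was used was not analysed here. Sequence outside these windows, introns included, was not searched, so a window without a match does not mean a gene without one.

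**Figure D2:**
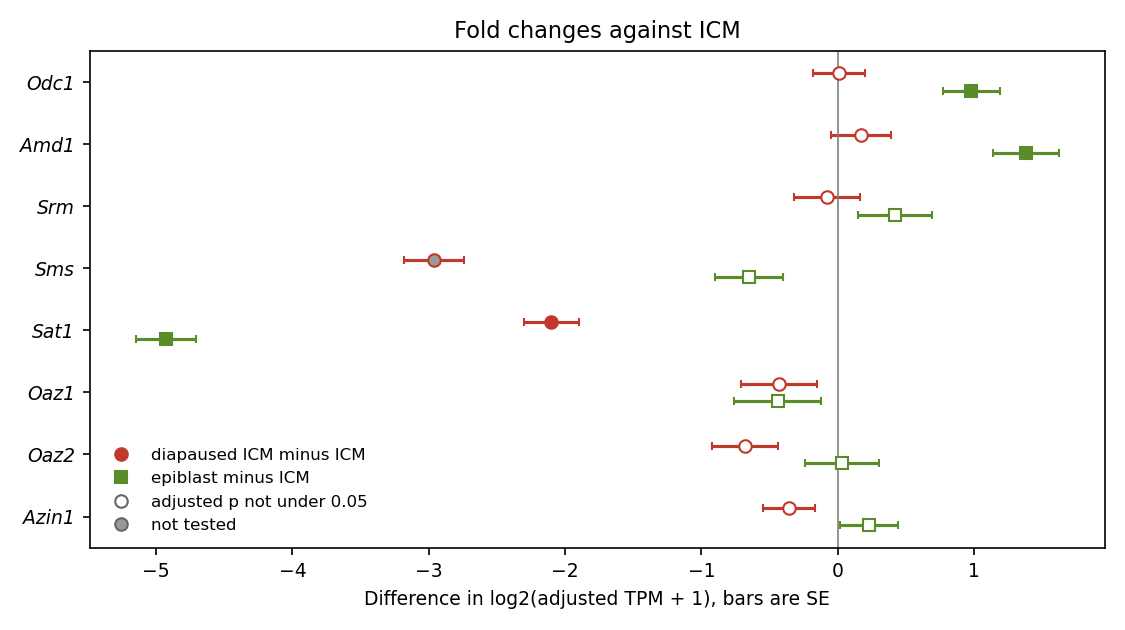
Differences on the log2(value + 1) scale for the 8 genes in dICM against ICM and in Epi against ICM, with the SE as bars, filled symbols for called differences, open symbols for those not called and grey for the untested Sms difference. Sat1 was the member with the lowest value in Epi against ICM (-4.93), and Odc1 and Amd1 were above 0 there (0.98 and 1.38).

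Sat1 (ENSMUSG00000025283) is also on the X chromosome and encodes spermidine/spermine N1-acetyltransferase, the rate-limiting enzyme of polyamine breakdown. It was at 243, 297 and 250 in ICM, 65.5, 62.0 and 53.8 in dICM and 8.12 and 7.18 in Epi, so that the 3 groups stood apart with dICM between the others. The mean fell from 263 ± 29.2 (SD, n = 3) in ICM to 60.4 ± 6.01 (SD, n = 3) in dICM, 4.36-fold lower (-2.10 ± 0.20 SE, limma adjusted p = 0.00035). In Epi it was 7.65 ± 0.667 (SD, n = 2), 34.4-fold lower than in ICM (-4.93 ± 0.22 SE, limma adjusted p = 7e-06). The level in dICM was above that in Epi by 2.83 ± 0.22 (SE, limma adjusted p = 7.3e-05). All 3 calls held in each of the 19 alternatives. Sat1 and Sms differed in their order of groups: Sat1 was lowest in Epi and Sms in dICM. Of the 1076 kept genes on the X chromosome, 5.48% were called lower in dICM than in ICM and 8.64% higher, with a median difference of 0.04.

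Of the regulators of ornithine decarboxylase none passed the test in any comparison, and all 3 had lower mean levels in dICM than in ICM. Oaz1 (ENSMUSG00000035242), the major antizyme gene, was at 206, 226 and 314 in ICM, 204, 145 and 202 in dICM and 235 and 138 in Epi. The dICM values were all below the ICM values, with 204 next to 206 at the nearest pair, while the Epi libraries lay far apart, 1 of them below every other library. Oaz1 differed by -0.43 (95% interval -1.07 to 0.21, limma adjusted p = 0.38) between dICM and ICM and by -0.44 (95% interval -1.16 to 0.28, limma adjusted p = 0.33) between Epi and ICM. Between dICM and Epi the difference was 0.01 (95% interval -0.71 to 0.73, limma adjusted p = 0.99).

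Oaz2 (ENSMUSG00000040652), a second antizyme gene, was at 13.3, 10.5 and 13.4 in ICM, 7.83, 6.33 and 7.79 in dICM and 16.3 and 9.68 in Epi. Each dICM library lay below all others, whereas the Epi libraries lay on both sides of ICM. The difference between dICM and ICM was -0.68 (95% interval -1.23 to -0.14, limma adjusted p = 0.1), and it was called only after rescaling to a common total (limma adjusted p = 0.038). For dICM against Epi it was -0.71 (95% interval -1.32 to -0.11, limma adjusted p = 0.067), and it was called with quantile normalization (limma adjusted p = 0.022) and without Epi replicate 2 (0.047). Between Epi and ICM Oaz2 differed by 0.03 (95% interval -0.58 to 0.64, limma adjusted p = 0.94).

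Azin1 (ENSMUSG00000037458) encodes antizyme inhibitor, a relative of ornithine decarboxylase without its enzyme activity that binds antizymes. It was at 12.6, 13.7 and 14.4 in ICM, 10.5, 9.05 and 11.6 in dICM and 16.9 and 15.2 in Epi. The 3 groups did not overlap, in the order dICM, ICM and Epi. The differences were -0.36 (95% interval -0.80 to 0.07, limma adjusted p = 0.27) for dICM against ICM, 0.23 (95% interval -0.26 to 0.72, limma adjusted p = 0.45) for Epi against ICM and -0.59 (95% interval -1.08 to -0.11, limma adjusted p = 0.061) for dICM against Epi. The last of these was called in 4 alternatives, with a lowest limma adjusted p of 0.02 under quantile normalization.

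Ratios within a library do not depend on how that library was scaled. The level of Sat1 relative to Odc1, breakdown to synthesis, was 0.608, 0.885 and 0.614 in ICM, 0.173, 0.175 and 0.130 in dICM and 0.0103 and 0.0101 in Epi. The groups did not overlap, in the same order as for Sat1 alone. On the log2 scale the mean ratio was lower by -2.13 in dICM and by -6.09 in Epi than in ICM, and higher by 3.96 in dICM than in Epi. The exact permutation p was 0.1 for each, two-sided, which is the smallest that 3 against 3 or 3 against 2 libraries can give.

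Odc1 relative to summed Oaz1 and Oaz2 was 1.82, 1.42 and 1.25 in ICM, 1.79, 2.35 and 1.96 in dICM and 3.15 and 4.82 in Epi. ICM and dICM overlapped, with 1 ICM library above the lowest dICM library, and Epi was above both. The log2 ratio was higher by 0.45 in dICM than in ICM (exact permutation p = 0.2, two-sided) and by 1.40 in Epi than in ICM (exact permutation p = 0.1, the smallest possible). It was lower by -0.95 in dICM than in Epi (exact permutation p = 0.1). With near-identical copies added, dICM (3.50, 5.06 and 3.76) and Epi (4.45 and 7.96) overlapped. ICM (3.49, 3.09 and 2.59) then lay below dICM, with 3.49 next to 3.50 at the nearest pair.

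Srm relative to Sms, the steps to spermidine and to spermine, was 0.207, 0.164 and 0.190 in ICM, 1.43, 1.64 and 1.35 in dICM and 0.382 and 0.411 in Epi. On the rows as deposited Srm exceeded Sms in the dICM libraries and was below it in the other 5. With the near-identical copy of Sms added, the ratio was below 1 in every library, at 0.511, 0.876 and 0.746 in dICM, 0.0622 to 0.0805 in ICM and 0.177 and 0.211 in Epi, so which of the pair was more abundant in dICM depends on the copy, and dICM stayed highest. This ratio was not tested, because the values of Sms chose it.

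**Figure D3:**
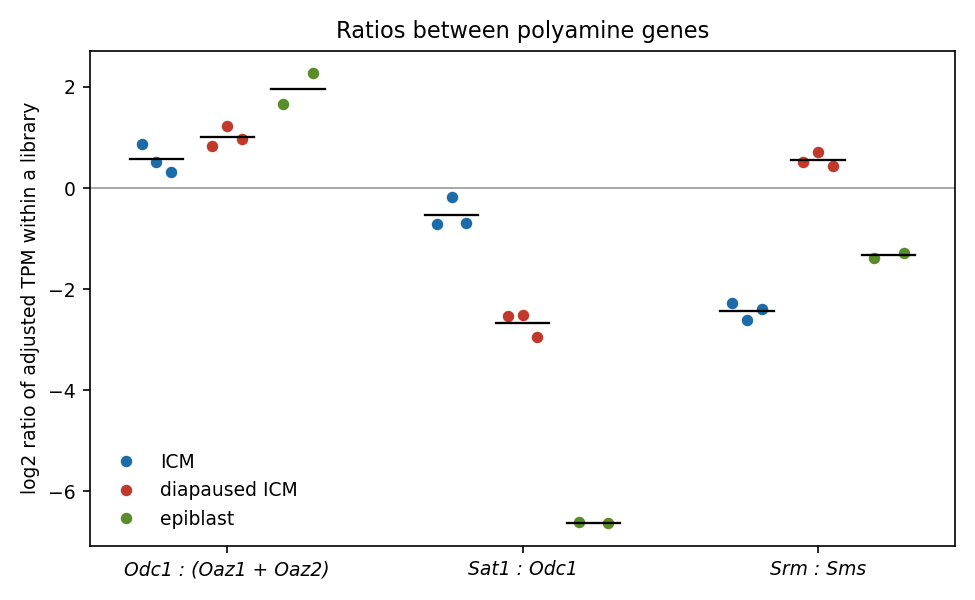
Log2 ratios within each library for Sat1 to Odc1, Odc1 to summed Oaz1 and Oaz2, and Srm to Sms, by group, with each point a library and each bar the group mean. Sat1 to Odc1 averaged -0.53, -2.66 and -6.62 in ICM, dICM and Epi, and Srm to Sms was above 0 in the 3 dICM libraries alone, where it was -0.97, -0.19 and -0.42 with the Sms copy added.

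Several members share sequence with other genes in the table, and how reads were divided among them is not known here. Those called near-identical copies shared from 5.88% (Oaz2-ps with Oaz2) to 86.1% (Amd2 with Amd1) of a member's windows, so most are alike only in part. Of the 50-base windows of the annotated transcripts (GENCODE M21), 87.6% of Amd1, 42.2% of Odc1, 21.0% of Oaz1 and 17.5% of Sms also occurred in another gene, against 7.42% for Oaz2, 4.84% for Azin1, 2.72% for Sat1 and 2.01% for Srm. By this share of windows Amd1 and Odc1 overlapped most with other genes. The level of Sms is also uncertain, because its copy averaged 160 in ICM beside 104 for Sms itself. Amd2, which shares 86.1% of the Amd1 windows, averaged 10.9 in ICM, 12.8 in dICM and 32.6 in Epi, close to the 13.0, 14.8 and 35.3 of Amd1. Amd2 rose in Epi against ICM by 1.50 ± 0.24 (SE, limma adjusted p = 0.0025).

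The 6 analysed Odc1 copies, each with at least 5% of its windows, summed to means of 523 in ICM, 492 in dICM and 668 in Epi. Gm7993, which shares the most windows with Odc1 (20.3%), was not analysed here and is not in these sums. With the 6 added, Odc1 averaged 904 ± 73.0 (SD, n = 3), 874 ± 32.0 (SD, n = 3) and 1420 ± 45.6 (SD, n = 2), and its rise in Epi against ICM was smaller, 0.65 ± 0.20 (SE, limma adjusted p = 0.035). The single copy of Sms, listed as Gm14680, was at 174, 141 and 164 in ICM, 27.2, 9.09 and 9.66 in dICM and 75.8 and 62.1 in Epi. Its row was low in the same libraries as Sms, and the sum of both was -3.28 in dICM against ICM, again without a test.

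**Figure D4:**
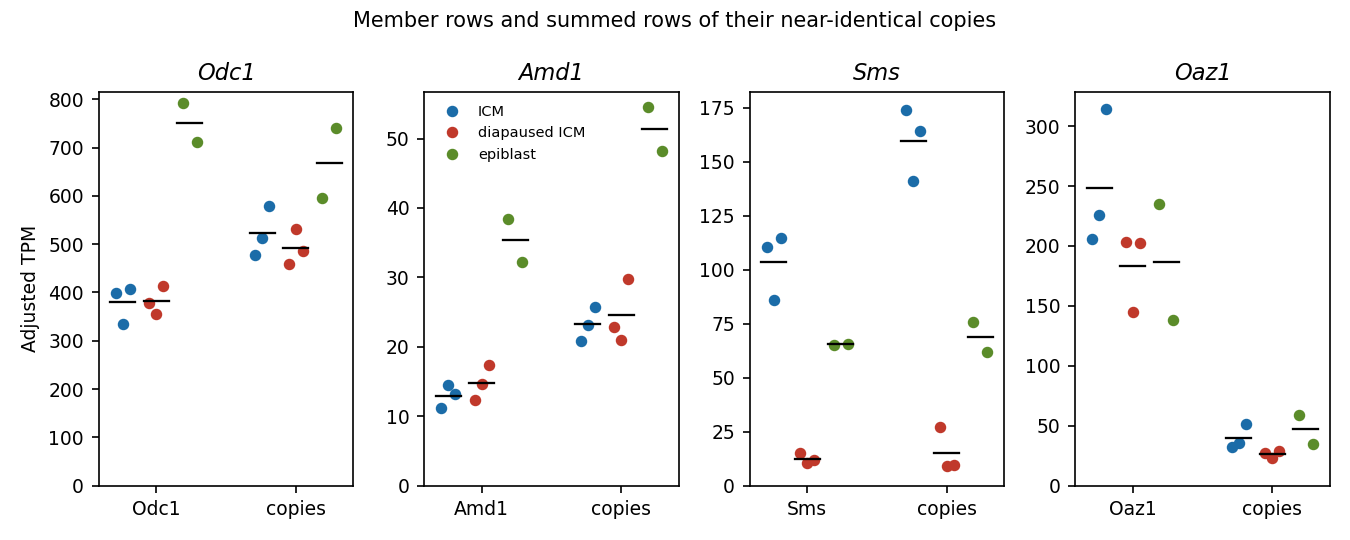
Adjusted TPM per library of Odc1, Amd1, Sms and Oaz1 and, beside each, of its summed near-identical copies, by group, with bars at the group means. The Sms copy averaged 160 in ICM, 15.3 in dICM and 68.9 in Epi, in the same order of groups as Sms.

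The rest of the pathway was taken from 8 lists of 38 genes, of which 26 passed the filter. Among these 26, 4 were called higher and 3 lower in dICM than in ICM, 9 and 4 in Epi than in ICM, and 3 and 8 in dICM than in Epi. Over all kept genes the shares called higher and lower were 7.52% and 5.81%, 16.7% and 13.3%, and 16.0% and 18.6%. Their median differences were 0.18, 0.14 and -0.23, against 0.00, 0.14 and -0.11 over all kept genes.

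Arginine and ornithine supply had 3 of 5 kept genes higher in dICM than in ICM, 0 lower and a median difference of 1.63, beside 7.52% and 5.81% of all kept genes called higher and lower and a median of 0.00. Slc7a2, a cationic amino acid transporter that carries arginine and ornithine, was at 2.46, 2.20 and 2.44 in ICM, 14.1, 10.9 and 12.8 in dICM and 0.253 and 0.427 in Epi. It was higher in dICM than in ICM by 2.01 ± 0.19 (SE, limma adjusted p = 0.00031) and lower in Epi than in ICM by -1.33 ± 0.21 (SE, limma adjusted p = 0.0022). Slc7a1, a second such transporter, averaged 4.80 in ICM, 17.3 in dICM and 1.40 in Epi, higher in dICM by 1.63 ± 0.25 (SE, limma adjusted p = 0.0038). Oat, ornithine aminotransferase, which interconverts ornithine and glutamate semialdehyde, averaged 1.52, 11.9 and 3.67 and was higher in dICM than in ICM by 2.31 ± 0.31 (SE, limma adjusted p = 0.0017). These 3 did not overlap between dICM and ICM, beside 30.7% of all kept genes without overlap, and kept that call without any single library. Azin2, in the same list, encodes an antizyme inhibitor, as Azin1 does, and not a supply enzyme or transporter. It did not overlap either but was lower in dICM, at a mean of 1.36 beside 1.99 in ICM. It was not called (limma adjusted p = 0.38). Arg1, Arg2, Otc and Agmat, also in this list, did not pass the filter and were at 0.27 or less in every library.

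Of the other breakdown enzymes, 0 of 3 kept genes were called between dICM and ICM, beside 7.52% higher and 5.81% lower of all kept genes. Paox, which oxidises acetylated polyamines, averaged 6.52 in ICM, 8.51 in dICM and 16.1 in Epi and was called higher in Epi than in ICM (1.20 ± 0.34 SE, limma adjusted p = 0.029). Smox, which oxidises spermine directly, was at 3.58 in ICM replicate 3 and at 1.05 or less in the other 7 libraries, and no difference was called.

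Spermidine is the donor for hypusine, a modified lysine found in the translation factor eIF5A. In this list of 4, 1 gene was called higher and 1 lower in dICM than in ICM, beside 7.52% and 5.81% of all kept genes. The median difference was -0.32, against 0.00 over all kept genes. Eif5a was at 197, 112 and 216 in ICM, 73.4, 85.8 and 88.5 in dICM and 121 and 110 in Epi, lower in dICM than in ICM by -1.03 ± 0.27 (SE, limma adjusted p = 0.039). This call held without ICM replicate 2 but without no other library (limma adjusted p = 0.061 to 0.13), and it was lost with no filter (0.11) and with a fit of the 2 groups alone (0.067). Its paralog Eif5a2 was low throughout, averaging 0.190, 1.39 and 1.79, and was called higher in dICM by 1.02 ± 0.24 (SE, limma adjusted p = 0.025), a call that held without ICM replicate 3 or dICM replicate 2 and without no other library (0.058 to 0.084) and was lost with no filter (0.07). Dhps and Dohh, the enzymes that make hypusine, averaged 17.0 and 9.36 in ICM and 10.1 and 10.3 in dICM, and neither difference was called (limma adjusted p = 0.093 and 0.93).

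Of 3 kept transport genes, 0 were called higher and 1 lower in dICM than in ICM, beside 7.52% and 5.81% of all kept genes. Slc18b1, a vesicular polyamine transporter, averaged 8.04 in ICM, 3.39 in dICM and 3.92 in Epi. It was lower in dICM than in ICM by -1.02 ± 0.21 (SE, limma adjusted p = 0.015, and 0.059 without ICM replicate 1). Atp13a3, a polyamine transporting ATPase, averaged 43.0, 21.5 and 14.6. Its difference of -1.0 between dICM and ICM was not called (limma adjusted p = 0.062). Atp13a3 was called lower in dICM after rescaling to a common total (limma adjusted p = 0.038) and with a filter at 5 (0.044). It was lower in Epi than in ICM by -1.54 ± 0.34 (SE, limma adjusted p = 0.01).

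The lists on S-adenosylmethionine supply and on salvage of methylthioadenosine, the by-product of both aminopropyl transfers, had 2 of 2 and 2 of 5 kept genes higher in Epi than in ICM and 0 lower in either list, beside 16.7% and 13.3% of all kept genes. Mat2a and Mat2b, which encode the catalytic and regulatory subunits of methionine adenosyltransferase, averaged 26.4 and 7.30 in ICM, 29.9 and 9.33 in dICM and 55.6 and 36.7 in Epi. They were higher in Epi than in ICM by 1.05 ± 0.27 (SE, limma adjusted p = 0.019) and 2.10 ± 0.41 (SE, limma adjusted p = 0.0058). Mtap, which cleaves methylthioadenosine, averaged 2.75, 2.81 and 13.3 and was higher in Epi by 1.93 ± 0.31 (SE, limma adjusted p = 0.0024). Of these lists 1 gene, Apip, was called lower in dICM than in ICM, beside 5.81% of all kept genes. Apip, a salvage enzyme, averaged 11.0 in ICM, 4.25 in dICM and 29.0 in Epi (-1.26 ± 0.34 SE for dICM against ICM, limma adjusted p = 0.04). The Apip call was lost without any of the ICM libraries and without dICM replicate 1 or 2 (limma adjusted p = 0.071 to 0.12), with no filter (0.16) and with a pseudocount of 5 (0.065). Adi1, which acts later in the salvage, averaged 10.2, 4.01 and 15.0 and was not called between dICM and ICM (limma adjusted p = 0.058). It was called lower in dICM with rescaling to a common total (limma adjusted p = 0.016), quantile normalization (0.041) or a filter at 5 (0.044). Leaving out ICM replicate 2 (limma adjusted p = 0.043) or dICM replicate 1 (0.033) also gave the call.

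Of the Myc family, 0 of 3 were called between dICM and ICM, beside 7.52% higher and 5.81% lower of all kept genes. Myc was at a mean of 9.89 in ICM, 20.1 in dICM and 9.21 in Epi (limma adjusted p = 0.16 for dICM against ICM). Mycn, at 3.43, 5.11 and 32.8, was higher in Epi than in ICM by 2.72 (limma adjusted p = 0.0054), with an SD of 27.4 between the 2 Epi libraries. Mycl, at 0.398, 0.185 and 3.16, was higher there by 1.56 (limma adjusted p = 0.0039).

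Of the 13 calls in these lists for Epi against ICM, 8 were lost without Epi replicate 1 (Apip, Atp13a3, Eif5a2, Mat2a, Mat2b, Paox, Slc18b1 and Slc7a1, limma adjusted p = 0.064 to 0.26) and 4 without Epi replicate 2 (Eif5a2, Mat2a, Paox and Slc18b1, 0.078 to 0.098). Leaving out an ICM library removed 4 of them without replicate 1 (Apip, Mat2a, Paox and Slc18b1), 3 without replicate 2 (Apip, Paox and Slc18b1) and 1 without replicate 3 (Apip), with limma adjusted p from 0.054 to 0.085. Rescaling to a common total ended those of Paox, Mat2a and Apip (0.055, 0.14 and 0.12), no filter those of Paox and Apip (0.093 and 0.12), median-of-ratios scaling that of Apip (0.054) and a fit of the 2 groups alone that of Slc18b1 (0.051). The calls for Slc7a2, Amd2, Mtap, Mycn and Mycl held without any single library.

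**Figure D5:**
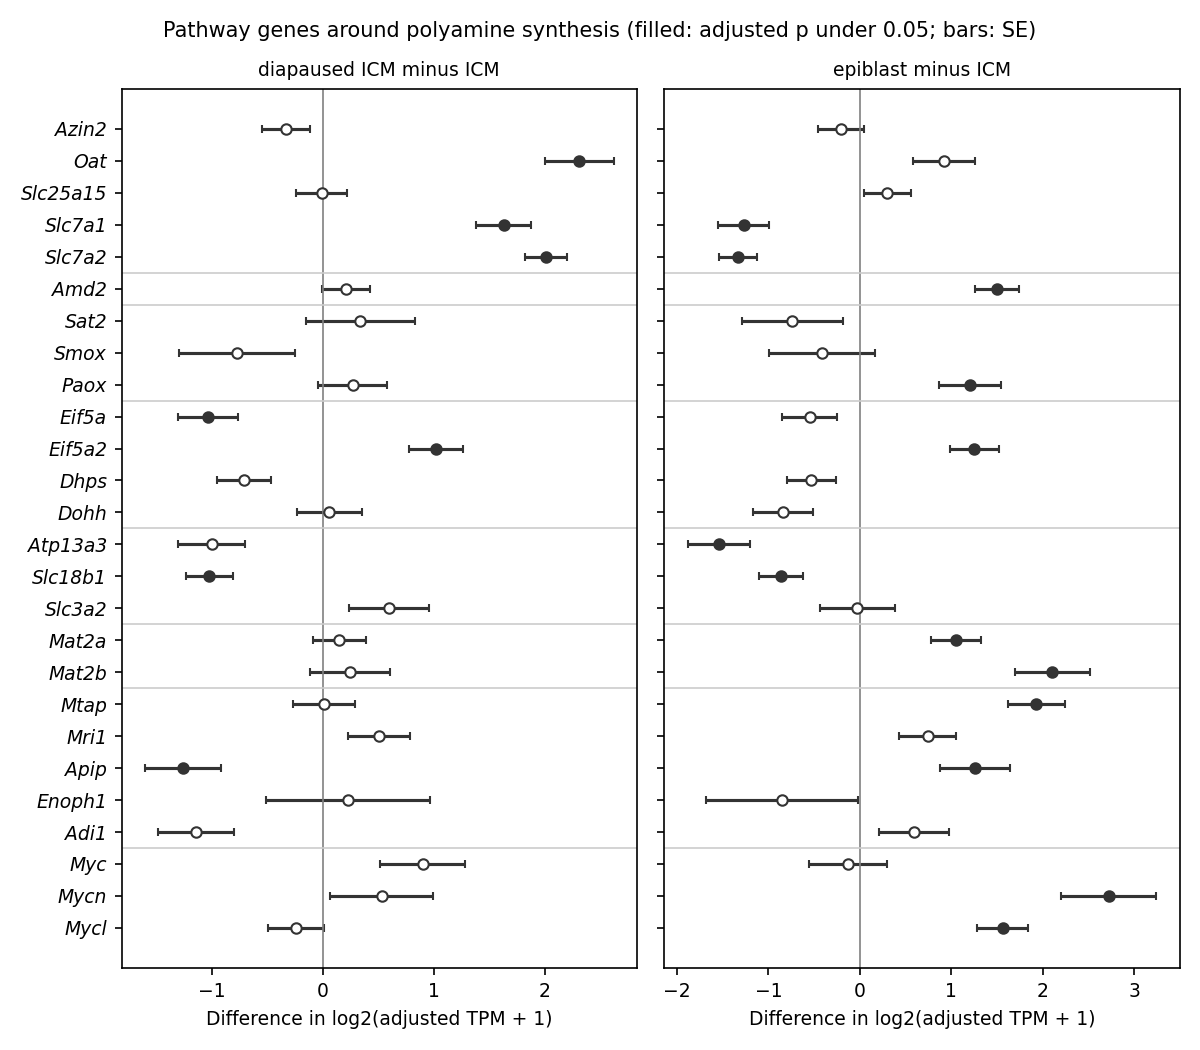
Differences on the log2(value + 1) scale for the other pathway genes that passed the filter, by list, for dICM against ICM and Epi against ICM, with the SE as bars, filled symbols for called genes and lines between lists. Slc7a1, Slc7a2 and Oat were above 1.5 in dICM against ICM, and Mat2b, Mtap and Mycn were above 1.9 in Epi against ICM.

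The genes whose pattern was most like that of Sms were ranked by Pearson correlation of log2(value + 1) over the 8 libraries, among 3776 genes with a mean of at least 10 and an ordinary symbol. The 5 highest were Ube2nl (0.987), Myef2 (0.985), Arl6ip1 (0.984), Psmb6 (0.982) and Chchd4 (0.971). The 8 libraries fall into 3 groups, so the correlation mostly reflects the group means, and it is a description. Myef2 averaged 46.9 in ICM, 7.81 in dICM and 34.2 in Epi, and Psmb6, a proteasome subunit gene, averaged 142, 52.8 and 103. Ube2nl came closest to Sms in the size of its difference between dICM and ICM (-2.52 beside -2.96 for Sms), and Arl6ip1 differed least (-0.81). Among the members themselves Sms was correlated with Oaz2 at 0.853 and with Sat1 at 0.216 over the same libraries.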

How the data were processed

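The authors deposited 1 signal value per gene and library, named adjusted TPM in the file headers. For the adjustment, the counting and the annotation, details are not given in the sources used, and depth is unknown. The submitters' processing notes name Bowtie 0.12.5, DESeq and the mouse build mm9, with no role for any of them. Genes at 1 or more in at least 2 libraries were kept (17698). limma 3.58.1 in R 4.3.3, tested on simulated data, fitted log2(value + 1) over all 8 libraries with a mean per group (residual degrees of freedom 5), two-sided, with Benjamini-Hochberg adjustment over all kept genes and a threshold of 0.05. This scale understates changes of low genes. Intervals are 95% intervals of the moderated fit. Ratios had exact permutation tests. The tests had been planned for TPM, and the same test was kept.

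The members and lists were chosen with earlier results of these data known. Named genes were all members, 8 preset pathway genes and up to 3 called genes per list with the smallest adjusted p. Promoters came from RefSeq GRCm38.p6 and transcript windows from GENCODE M21, not from the authors' build. Alternatives covered pseudocount, filter, scaling, libraries fitted, variance trend, replicate block, repeated symbols and each library left out. Adding near-identical copies, to members and ratios, was chosen after seeing the data.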

Additional observations from a re-analysis of the deposited data

How the results depend on the processing

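With 2 or 3 libraries per group, no depth and amplified RNA, small differences may be missed. Between dICM and ICM, 1331 genes were higher and 1029 lower. No filter gave 675 and 603, and rescaling columns to a total of 1000000 gave 862 and 1480, with 2 members called in place of 1 and a shift of -0.21 in the median of all genes. Leaving out a library gave 794 to 1116 higher, 607 to 1113 lower and 1 member. Between Epi and ICM, 2963 were higher and 2361 lower. Rescaling gave 1537 and 2747, median-of-ratios scaling 2134 and 2684, and leaving out a library 760 to 2870 and 1028 to 2400, with 2 to 3 members. Between dICM and Epi, 2830 were higher and 3283 lower. Median-of-ratios scaling gave 3280 and 2240, quantile normalization called 5 members in place of 3, and leaving out a library gave 1418 to 2961, 1121 to 3390 and 1 to 4 members. The fewest members were called without Epi replicate 1. With 1 Epi library left, it was assumed to vary like the other groups. No called difference of a named gene changed sign. Of the 24 member differences, 6 that were called under no setting had both signs: Odc1, Srm and Amd1 for dICM against ICM, Azin1 and Oaz2 for Epi against ICM, and Oaz1 for dICM against Epi. With near-identical copies added, the log2 ratio differences were 0.97 (Epi against ICM) and -0.55 (dICM against Epi) for Odc1 to the antizymes, -5.76 and 3.68 for Sat1 to Odc1, and 3.25 (dICM against ICM) and 1.40 (Epi against ICM) for Srm to Sms.

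Whether the replicate numbers pair the samples could not be decided with 2 or 3 libraries per group. Same-number correlations of deviations from the group mean were 0.0175, 0.103 and 0.131 between ICM and dICM. ICM replicates 2 and 3 correlated best with the dICM library of the same number, and ICM replicate 1 with dICM replicate 2 (0.033). With the replicate block, genes called higher and lower were 1104 and 900 (dICM against ICM), 2490 and 1985 (Epi against ICM) and 2461 and 2853 (dICM against Epi), with 1, 3 and 4 members. It called Oaz2 between dICM and Epi (limma adjusted p = 0.046) and did not call Eif5a between dICM and ICM (0.057).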
